A study of Rattus norvegicus with 30 samples.

Results

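The jejunum of rats killed 72 h after a single dose of irinotecan was compared with the jejunum of untreated rats. The comparison rests on 4 of the 30 arrays of the series, the 2 arrays labelled jejunum at 72 h and the 2 labelled jejunum at 0 h. All rats were female, of the DA strain, 10 weeks old and housed singly. The treated group received irinotecan at 200 mg/kg into the peritoneal cavity under light halothane, and the untreated group was killed at 0 h without the drug. No source used here tells whether the untreated rats were given halothane or a vehicle. Each array carried RNA pooled from 3 rats, so each group holds 6 rats but only 2 values per gene, and differences between single rats are averaged within a pool. RNA came from whole pieces of flushed jejunum, which hold the epithelium together with connective tissue, muscle, vessels and immune cells. The full series has 15 groups, from 3 tissues (stomach, jejunum and colon) at 5 times (0 h, then 1 h, 6 h, 24 h and 72 h after the drug).

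Irinotecan is a camptothecin derivative whose active metabolite, SN-38, traps topoisomerase I on DNA and turns passing replication forks into strand breaks. The small intestine is sensitive because its epithelium is renewed within days by dividing cells in the crypts. Daughter cells stop dividing as they move onto the villus, where they become absorptive enterocytes with a brush border, or mucus-secreting goblet cells, or hormone-releasing enteroendocrine cells, while Paneth cells move down to the crypt base. When crypt cells are lost, the surviving cells divide, the underlying connective tissue supplies growth signals, and enterocytes are replaced from below.

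Expression is given on the log2 scale of the deposited values, so 1 unit is a doubling. A change is the mean of the 72 h arrays minus the mean of the 0 h arrays, printed with its standard error after ±. It was tested with limma across 31042 probe sets, with the spread estimated from all 10 jejunum arrays, and called at a Benjamini-Hochberg adjusted p under 0.05. Of these probe sets 20826 carried 1 gene symbol, for 14217 genes, and a gene is represented by its brightest probe set unless stated otherwise. Levels of different probe sets are not comparable with each other, so only differences within a gene are read.

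The 4 arrays grouped by label: the 72 h arrays correlated at 0.995 with each other over all probe sets and the 0 h arrays at 0.995, against 0.970 to 0.976 between the times. The gap between 3' and 5' control probe sets of GAPDH was 0.097 and -0.021 in the 72 h arrays, against 0.164 and 0.147 in the 0 h arrays, and that of β-actin 0.685 and 0.573, against 0.863 and 1.06. Both gaps, which are read as signs of RNA quality, were lower in both 72 h arrays, and their part in the results was not tested. The tissue label was checked on the same probe sets in the 3 tissues. The 10 measured markers of absorptive enterocytes averaged between 12.6 and 13.0 in the 10 jejunum arrays, against 7.13 to 8.56 in stomach arrays and 7.12 to 9.18 in colon arrays. The 4 markers of stomach mucosa averaged 6.49 to 6.87 in the jejunum, against 13.7 to 14.0 in the stomach, and the 3 of colon epithelium 7.16 to 8.10, against 11.4 to 12.6 in the colon. At 72 h the enterocyte markers averaged 12.8 and 12.6, against 12.8 and 12.9 at 0 h. Of the 6 proliferating cell markers 5 were called higher. No marker was called for Paneth, enteroendocrine, enteric neuron and glia, B and plasma, mast or endothelial cells. Markers of fibroblasts, smooth muscle and macrophages moved with the groups. The 6 fibroblast markers averaged 10.6 and 10.5 at 72 h, against 9.49 and 9.41 at 0 h, with 5 called higher. The 6 smooth muscle markers averaged 11.5 and 11.6, against 10.6 and 10.8, with 3 called higher, and the 6 macrophage markers 8.54 and 8.39, against 7.40 and 7.59, with 3 called higher. In whole tissue, fewer cells of a type and less RNA per cell cannot be told apart, nor can more cells and more RNA per cell. The part of these other cells in the results that follow was not tested.

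At 72 h 7405 probe sets were called, 3692 higher and 3713 lower, or 23.9%, 11.9% and 12% of those tested. Among genes, 2320 were higher (16.3%) and 1456 lower (10.2%), and the median change over all 14217 genes was -0.01. With 2 arrays in each group, both 72 h arrays lay above both 0 h arrays for 5399 genes and below them for 5274, called or not. Large changes were mostly increases: 404 probe sets changed at least 2-fold and passed the test (1.3%), 335 of them higher and 69 lower. The number called depended on the arrays used. Leaving out any 1 of the 4 arrays lowered it to between 1692 and 3111. With dim probe sets left out, 4271 were called, 2827 higher and 1444 lower, so the split between higher and lower calls depends on the dim probe sets. Among named genes that were called, the dimmer probe sets of Anxa3, Ccne2, Clock, Ctps1, Gja1, Kcne3, Mmp2, Per3, Plaur, Rora and Serpinh1 include 1 or more with a change of the other sign.

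**Figure D1:**
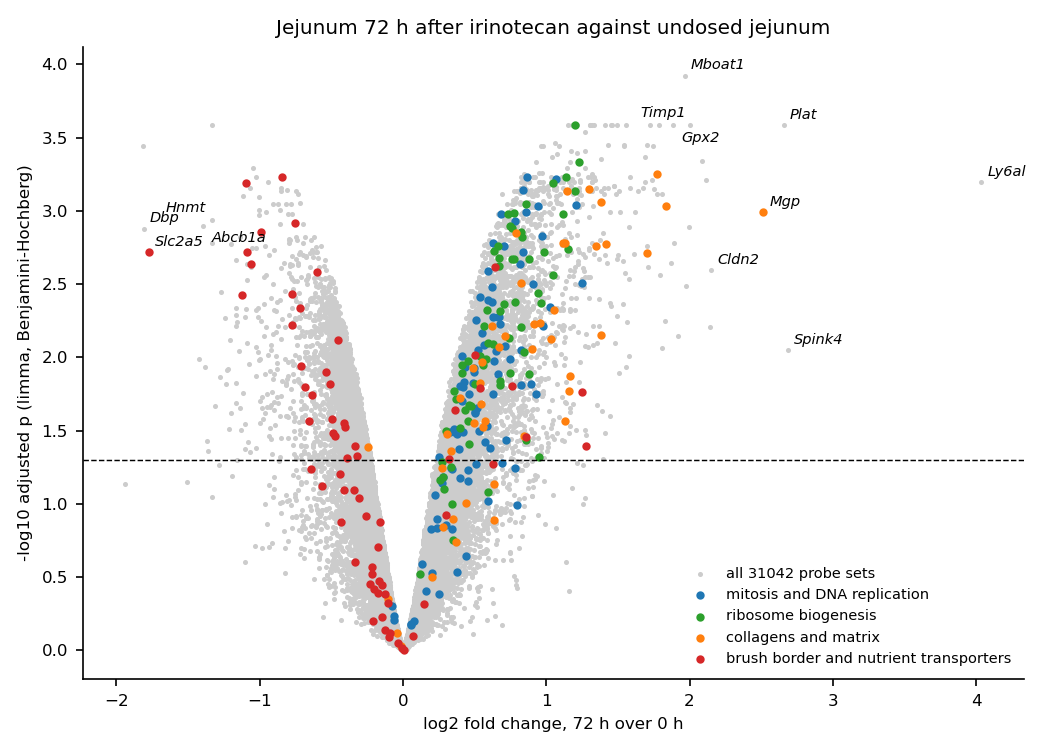
Change in the jejunum at 72 h over 0 h for each of 31042 probe sets (horizontal axis, log2 fold change) against the evidence for it (vertical axis, -log10 of the adjusted p from limma, with the 0.05 threshold as a dashed line). Genes of mitosis and replication, ribosome biogenesis, and collagens and matrix, in colour, lie to the right, most brush border and nutrient transporter genes lie to the left, and Ly6al lies farthest right at 4.04.

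The largest increase was that of Ly6al, a rat gene for which RefSeq lists Ly6a as a synonym. In mice the product of Ly6a, Sca-1, is known as a marker of regenerating, fetal-like gut epithelium. The level of Ly6al was 10.63 and 10.91 in the 72 h arrays, against 6.75 and 6.71 in the 0 h arrays (4.04 ± 0.38, adjusted p = 0.000640), a 16.4-fold difference. Both treated pools stood far above both untreated pools, and the 24 h arrays, at 7.99 and 9.52, lay between them. The next was Spink4, a small secreted peptide of goblet cells, with 12.22 and 12.33 at 72 h, against 9.48 and 9.70 at 0 h (2.69 ± 0.52, adjusted p = 0.00896). Plat, tissue plasminogen activator, which starts fibrin breakdown, had 10.53 and 10.90 at 72 h, against 8.11 and 8.0 at 0 h (2.66 ± 0.16, adjusted p = 0.000259). Mgp, matrix Gla protein, an inhibitor of calcification made by connective tissue cells, had 12.10 and 12.11 at 72 h, against 9.56 and 9.62 at 0 h (2.52 ± 0.28, adjusted p = 0.00103). The choice of these 4 genes required arrays that did not overlap between the groups, and each exceeded its untreated level more than 5-fold.

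Behind them came genes of the epithelial barrier and of signalling from connective tissue. Cldn2, the claudin that makes a cation- and water-permeable pore between epithelial cells, had 9.71 and 10.04 in the 72 h arrays, against 7.77 and 7.68 in the 0 h arrays (2.15 ± 0.30, adjusted p = 0.00254). Grem1, a secreted blocker of bone morphogenetic proteins, made by cells around the crypt, had 9.66 and 10.26 in the 72 h arrays, against 8.0 and 7.69 in the 0 h arrays (2.11 ± 0.19, adjusted p = 0.000618). Timp1, an inhibitor of matrix metalloproteases, had 9.67 and 9.88 in the 72 h arrays, against 7.67 and 7.87 in the 0 h arrays (2.01 ± 0.14, adjusted p = 0.000259). In these 3 genes the gap between the pools of a group was far below the gap between the groups. Their choice too required a call and arrays that did not overlap, so this is no separate check. The lysosomal protease Ctsl (1.99), the secreted Wnt antagonist Sfrp1 (1.97), the membrane acyltransferase Mboat1 (1.97), the secreted protein Fam3d (1.89), the epithelial glutathione peroxidase Gpx2 (1.88) and Ctla2a, a cathepsin inhibitor in mice (1.87), also rose. A second probe set rose less for Ctsl, by 0.81, and 2 further ones for Sfrp1, by 0.63 and 0.96. The ubiquitin ligase Nedd4 rose by 2.09 on 1 of its probe sets and by 1.17, 1.31 and 1.37 on others, while its brightest gave 0.61 (adjusted p = 0.0702) and its dimmest 0.06. Fut2, the fucosyltransferase that decorates mucosal glycans, had 8.68 and 9.23 at 72 h, against 7.13 and 6.93 at 0 h on the probe set with its largest change. The brightest probe set of Fut2 rose less, by 1.19, and the other gave -0.17 (adjusted p = 0.181).

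The decreases were smaller. Dbp, a clock output transcription factor, had 6.90 and 7.01 at 72 h, against 8.71 and 8.82 at 0 h (-1.81 ± 0.21, adjusted p = 0.00132). Slc2a5, the fructose transporter of the brush border, had 7.83 and 8.19 at 72 h, against 9.75 and 9.82 at 0 h (-1.78 ± 0.23, adjusted p = 0.00191). Abcb1a, P-glycoprotein, which pumps drugs including irinotecan back into the lumen, had 9.42 and 9.52 at 72 h, against 10.62 and 11.10 at 0 h (-1.39 ± 0.16, adjusted p = 0.00126), and its other probe set fell too, by 0.76. In all 3 genes both treated pools lay at least 1 unit below both untreated pools. The choice of the decreases also required a call and arrays that did not overlap, so this is no separate check. Hnmt, which methylates histamine, fell on 1 probe set (-1.34), while a second gave -0.05. Bco1, which splits dietary β-carotene in enterocytes, had 10.54 and 11.34 at 72 h, against 12.18 and 12.33 at 0 h (-1.32 ± 0.32, adjusted p = 0.0214). Ppargc1b, a coactivator of mitochondrial genes (-1.23), Fam13a (-1.33), the amino acid transporter Slc6a20a (-1.22), the glucuronosyltransferase Ugt2b15 (-1.21) and the clock repressor Nr1d1 (-1.24) also fell, although the brighter probe set of Slc6a20a gave -0.54. Of the remaining 5, Setd5 (-1.42), Wdfy1 (-1.38), Herc1 (-1.28) and Samd8 (-1.21) had other probe sets with smaller changes (for Setd5 -0.20 and -0.16), and Arhgap5 was at -1.24. The 51 probe sets with 1 symbol that fell at least 2-fold came from genes with a median span of 50.3 kb in RefSeq's GRCr8 annotation. It was 30.5 kb for the 277 that rose at least 2-fold and 26.8 kb for all. Without the 2-fold limit it was 27.05 kb for probe sets called lower and 26.95 kb for those called higher. These differences were not tested.

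**Figure D2:**
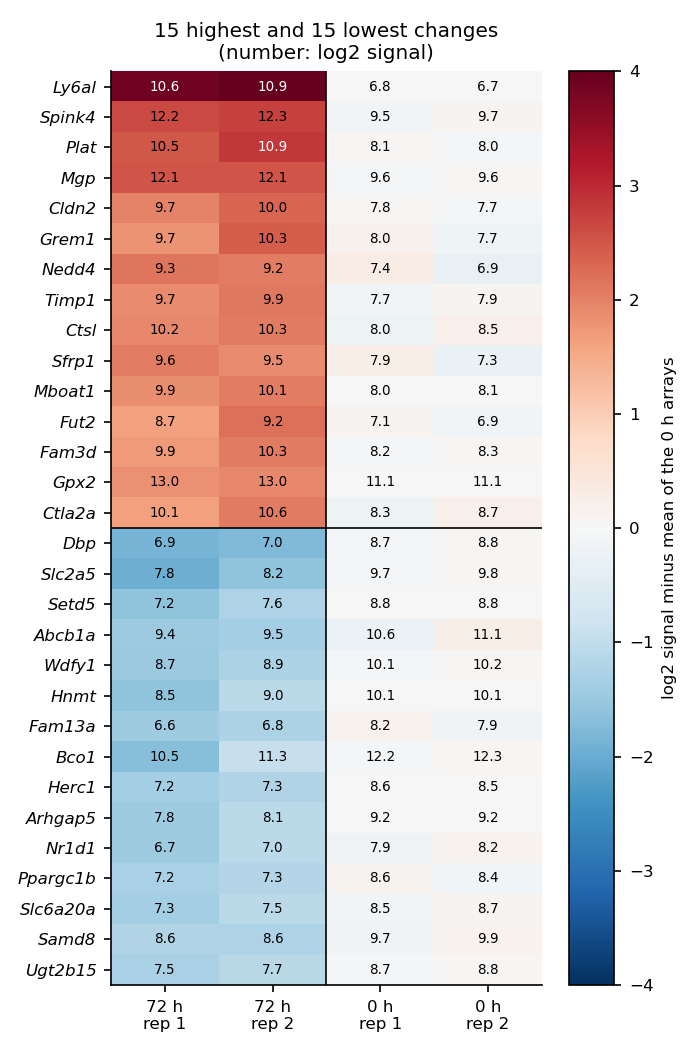
Log2 signal (numbers) of the 15 probe sets with the highest and the 15 with the lowest called change, in the 72 h arrays (left columns) and the 0 h arrays (right columns), coloured by the difference from the mean of the 0 h arrays. The 2 pools of each group have similar colours, and Ly6al has the strongest, at 10.63 and 10.91 at 72 h, against 6.75 and 6.71 at 0 h.

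Genes of cell division were widely higher. Of 47 measured mitosis genes 35 rose and 0 fell, with a median change of 0.57, beside 16.3% of all genes higher and a median of -0.01. Ccna2, cyclin A2, which drives S phase and entry into mitosis, had 9.37 and 9.26 in the 72 h arrays, against 8.15 and 8.07 in the 0 h arrays (1.21 ± 0.13, adjusted p = 0.000911). Ect2, the exchange factor that starts the cleavage furrow, had 9.76 and 9.70 at 72 h, against 8.90 and 8.74 at 0 h (0.91 ± 0.14, adjusted p = 0.00316). Cdk1, the kinase that triggers mitosis, had 10.16 and 10.17 at 72 h, against 9.34 and 9.12 at 0 h (0.93 ± 0.22, adjusted p = 0.0179). Treated pools were above untreated pools in all 3, as they were for 45 of the 47 mitosis genes and 5399 of all 14217 genes. Kif23, a kinesin of the central spindle (1.07), Smc2, a condensin subunit (0.97), Bub1, a spindle checkpoint kinase (0.86), Cdc20, which activates the anaphase-promoting complex (0.74), and Aurka, the centrosome kinase (0.66), rose as well. Dimmer probe sets of Cdc20 gave 0.06, 0.13, 0.16 and 0.55 and did not pass, while that of Kif23 rose by 0.38. Not all proliferation markers passed: Mki67, the Ki-67 antigen, had a change of 0.44 (adjusted p = 0.229), Foxm1, the transcription factor of late cell cycle genes, 0.08, and Cenpa, the centromeric histone, -0.08. With 1 array left out, between 10 and 22 mitosis genes were called.

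Replication and nucleotide supply moved the same way. Of 48 genes of DNA replication 30 rose and none fell (median 0.50). All 6 subunits of the MCM helicase, which unwinds DNA at the fork, were called: Mcm4 (1.25), Mcm6 (0.98), Mcm7 (0.95), Mcm3 (0.82), Mcm5 (0.78) and Mcm2 (0.71). Mcm5 had 8.96 and 8.90 at 72 h, against 8.19 and 8.11 at 0 h (0.78 ± 0.09, adjusted p = 0.00117). The single-strand binding proteins Rpa1 (1.03) and Rpa2 (0.87), the origin protein Orc1 (0.84), cyclin E2, Ccne2 (0.89), and the sliding clamp Pcna (0.58) rose, while E2f1, the founding E2F factor, had a change of 0.06. Of 24 genes of nucleotide synthesis 18 rose and none fell (median 0.68). Ctps1, which makes CTP, had 9.01 and 8.96 at 72 h, against 7.67 and 7.61 at 0 h (1.35 ± 0.13, adjusted p = 0.000696). Mthfd1, a folate enzyme (0.98), Atic, of the last purine steps (0.94), Umps, of the last pyrimidine step (0.70), and Rrm1, the large subunit of ribonucleotide reductase (0.76), rose, whereas a second, dimmer probe set of Ctps1 gave -0.28 (adjusted p = 0.0968) and Tyms, thymidylate synthase, was at 0.27 (adjusted p = 0.0796). With 1 array left out 13 to 19 replication genes and 9 to 15 nucleotide synthesis genes were called.

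Mitosis and replication genes are known to share promoter elements, and ribosome biogenesis genes often carry the E-box that MYC binds, so the promoters of 6 called genes are shown. Each is the 200 bases before the start of the gene in RefSeq's GRCr8 annotation, read 5′ to 3′ on the gene's strand, with matches in capitals. The searched letters were TTTGAA (the cell cycle homology region, bound by the DREAM complex), CCAAT (bound by NF-Y), TTCCCGC (an E2F site) and CACGTG (the E-box), on both strands, so that ATTGG and GCGGGAA are the reverse of CCAAT and TTCCCGC. The first pair, at chr20:19265093-19265292 (plus strand) for Cdk1 and chr2:111966627-111966826 (minus strand) for Ect2, are mitosis genes with both TTTGAA and CCAAT.
Cdk1: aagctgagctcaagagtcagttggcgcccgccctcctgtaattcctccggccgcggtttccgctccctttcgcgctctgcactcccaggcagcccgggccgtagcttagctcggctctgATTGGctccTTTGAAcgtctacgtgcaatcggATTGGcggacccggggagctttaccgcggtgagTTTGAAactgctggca
Ect2: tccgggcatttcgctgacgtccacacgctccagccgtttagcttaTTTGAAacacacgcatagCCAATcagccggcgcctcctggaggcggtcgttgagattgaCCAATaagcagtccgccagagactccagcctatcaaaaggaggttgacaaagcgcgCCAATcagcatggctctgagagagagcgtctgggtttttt
The next pair, at chr19:13488613-13488812 (plus strand) for Mcm5 and chr5:150260572-150260771 (plus strand) for Rpa2, are replication genes with an E2F match and CCAAT.
Mcm5: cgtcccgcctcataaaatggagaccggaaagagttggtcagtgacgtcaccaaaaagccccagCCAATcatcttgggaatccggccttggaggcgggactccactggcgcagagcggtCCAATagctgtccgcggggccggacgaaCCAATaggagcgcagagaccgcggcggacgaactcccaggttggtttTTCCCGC
Rpa2: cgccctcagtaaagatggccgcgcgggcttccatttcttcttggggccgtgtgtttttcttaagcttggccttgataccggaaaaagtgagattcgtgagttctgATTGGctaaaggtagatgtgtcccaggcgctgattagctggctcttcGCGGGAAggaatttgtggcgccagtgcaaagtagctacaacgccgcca
The last pair, at chr16:6219783-6219982 (minus strand) for Gnl3 and chr14:83074146-83074345 (plus strand) for Pes1, are ribosome biogenesis genes with an E-box.
Gnl3: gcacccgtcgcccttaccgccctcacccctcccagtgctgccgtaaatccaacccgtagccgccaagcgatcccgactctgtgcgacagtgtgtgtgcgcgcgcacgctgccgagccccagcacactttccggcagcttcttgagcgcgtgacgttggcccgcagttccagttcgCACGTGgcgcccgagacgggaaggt
Pes1: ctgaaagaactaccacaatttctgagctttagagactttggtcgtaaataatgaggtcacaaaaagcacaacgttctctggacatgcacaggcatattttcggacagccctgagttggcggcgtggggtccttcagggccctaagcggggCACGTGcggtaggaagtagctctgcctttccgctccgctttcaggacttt

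Counted over windows from 250 bases before to 50 after the start, TTTGAA was in 28 of 41 mitosis promoters, and in 22 of the 32 whose gene was called, against 12.3% of 11700 promoters of genes on the array and 18.1% of all 27457. CCAAT was in 32 of 41 mitosis and 26 of 41 replication promoters, against 37.3% of those on the array and 37.7% of all. TTCCCGC was in 18 of 41 replication promoters, against 7.55% and 4.47%, and CACGTG in 21 of 61 ribosome biogenesis promoters, against 8.94% and 6.65%. Among called genes alone, TTCCCGC was in 11 of 26 replication promoters and CACGTG in 19 of 52 ribosome biogenesis promoters. A match is a run of letters in a window. The shares describe the gene lists, and no binding was measured here.

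Of the 55 lists, ribosome biogenesis had the highest share of its genes called higher (86.4%). It is the nucleolar work of making ribosomal RNA and assembling it with proteins. Of 66 measured genes 57 rose and none fell (median 0.67), and with 1 array left out 32 to 39 were called. Ncl, nucleolin, had 11.42 and 11.12 in the 72 h arrays, against 10.11 and 10.02 in the 0 h arrays (1.20 ± 0.12, adjusted p = 0.000733). Pno1, an assembly factor of the small subunit, had 8.56 and 8.47 at 72 h, against 7.31 and 7.31 at 0 h (1.20 ± 0.09, adjusted p = 0.000259). Gnl3, nucleostemin, an assembly GTPase abundant in dividing cells, had 9.65 and 9.82 at 72 h, against 8.88 and 8.88 at 0 h (0.86 ± 0.09, adjusted p = 0.000897). In all 3 both 72 h arrays lay above both 0 h arrays, as they did for 5399 of all 14217 genes. The RNA helicase Ddx21 (1.23), the methyltransferases Emg1 (1.14) and Fbl, fibrillarin (0.95), the large-subunit factors Pes1 (0.83) and Bop1 (0.75), and the RNA polymerase I subunit Polr1b (0.78) rose. Of the 9 that did not pass, none was below 0, and Ubtf, the factor that binds ribosomal DNA, was at 0.35, with another of its probe sets called at 0.43 (adjusted p = 0.0487).

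The ribosome's own proteins gave few calls. Of 31 cytosolic ribosomal protein genes 1 was called, Rpl4 (0.45), with a median change of 0.22, and 29 lay above 0. Many of these genes have near-identical processed copies in the genome, and most of their probe sets lie near the top of the scale. The part of either in the count was not tested. Translation factors and tRNA ligases rose in 26 of 37 (median 0.53), such as Eif2s1, the α subunit of initiation factor 2 (0.67), and the threonine and glycine tRNA ligases Tars1 (0.75) and Gars1 (0.74). Heat shock and chaperonin genes rose in 21 of 28 and fell in none (median 0.61). These included the small heat shock protein Hspb1 (1.22), the constitutive HSP90, Hsp90ab1 (0.93), and 7 of the 8 measured chaperonin ring subunits, for example Cct8 (0.89) and Tcp1 (0.83). Proteasome subunits rose in 8 of 35, and endoplasmic reticulum chaperones in 10 of 28 with 1 lower, beside 16.3% of all genes called higher. When 1 array was left out, 8 to 16 translation genes, 9 to 15 heat shock genes, 0 to 3 proteasome genes, 1 to 5 endoplasmic reticulum chaperones and 0 cytosolic ribosomal protein genes were called higher.

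Enzymes that make serine and feed one-carbon metabolism stood out among the amino acid genes. Psat1, the second enzyme of serine synthesis, had 9.62 and 9.71 in the 72 h arrays, against 7.96 and 7.80 in the 0 h arrays (1.78 ± 0.12, adjusted p = 0.000259). Phgdh, the first enzyme, had 9.0 and 8.91 at 72 h, against 7.54 and 7.48 at 0 h (1.45 ± 0.10, adjusted p = 0.000259). Asns, asparagine synthetase (1.25), and Slc7a11, the cystine importer (1.19), rose as well. Of the 23 genes listed as targets of the transcription factor ATF4, 12 rose and 2 fell, while stress members of the same list did not pass: Trib3 was at -0.49, Chac1 at -0.23 and Ddit3, or CHOP, at 0.05. In the list for MYC and polyamines 3 of 14 rose and 1 fell, beside 16.3% of all genes higher and 10.2% lower. Myc itself had 8.89 and 9.02 at 72 h, against 8.52 and 8.36 at 0 h (0.52 ± 0.16, adjusted p = 0.0426), Srm, spermidine synthase, was at 0.98, and Odc1, ornithine decarboxylase, at 0.15 (adjusted p = 0.210). Mxi1, a MYC antagonist, fell (-0.44). In fits without 1 of the 4 arrays 8 to 11 genes of the ATF4 list and 0 to 1 of the MYC list were called higher.

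Markers of the crypt base did not move as 1 group. Of 18 measured 7 rose and 2 fell, beside 16.3% of all genes higher and 10.2% lower, and the lowest change was -0.33. Among the 5 measured markers used for crypt base stem cells as a cell type, 1 was called lower and 0 higher. Lgr5, the receptor that marks cycling stem cells in mice, had 6.92 and 6.69 in the 72 h arrays, against 6.97 and 7.16 in the 0 h arrays (-0.26 ± 0.12, adjusted p = 0.150). Ascl2, the transcription factor of the same cells, was at 0.23 (adjusted p = 0.146), Axin2, a Wnt target, at 0.10, and Smoc2 at 0.41. The members that rose were Clu, clusterin, which marks cells of the injured mouse crypt (1.26 ± 0.19, adjusted p = 0.00329), Prom1, the membrane protein CD133 (1.02 ± 0.11, adjusted p = 0.00102), Slc12a2, the chloride importer of crypt cells (0.95 ± 0.09, adjusted p = 0.000640), Tcf7, a Wnt-pathway factor also of T cells (0.85), Cd44 (0.83), Cdca7 (0.57) and the EGF receptor inhibitor Lrig1 (0.54). Several of these are made outside the crypt base too. A dimmer probe set of Clu gave 0.0061 and did not pass, while that of Cd44 rose by 1.20. After removal of 1 array 5 to 6 were called higher and 0 lower.

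Among signals of the stem cell niche 5 of 33 rose and 3 fell, shares near the 16.3% of all genes called higher and 10.2% called lower. Beside Grem1 and Sfrp1, Bmp2, a differentiation signal of the villus, was higher (0.77 ± 0.24, adjusted p = 0.0496), although a dimmer probe set gave 0.41 (adjusted p = 0.189). Ihh, the hedgehog ligand that enterocytes send to connective tissue, fell (-0.63 ± 0.13, adjusted p = 0.0124), and Rspo1, a Wnt amplifier, was lower (-0.40). The Wnt ligands Wnt4 (0.66), Wnt5a (0.03) and Wnt2b (-0.21), and Rspo3 (-0.08), did not pass. Growth factor genes were higher in 7 of 31. Areg, amphiregulin, had 9.34 and 9.99 in the 72 h arrays, against 8.39 and 7.82 in the 0 h arrays (1.56 ± 0.32, adjusted p = 0.0115). Ereg, epiregulin, another ligand of the EGF receptor, had 7.19 and 8.30 at 72 h, against 6.82 and 6.60 at 0 h (1.03 ± 0.28, adjusted p = 0.0303). Igf1, insulin-like growth factor 1, had 8.88 and 8.51 at 72 h, against 7.09 and 7.22 at 0 h (1.55 ± 0.12, adjusted p = 0.000357), and its binding protein Igfbp5 had 9.53 and 9.83 at 72 h, against 7.94 and 8.06 at 0 h (1.68 ± 0.16, adjusted p = 0.000696). Treated pools were above untreated pools in all 4, as in 15 of the 31 growth factor genes and 5399 of all 14217 genes. The 2 treated pools of Ereg lay far apart. Dimmer probe sets of Igfbp5 gave 0.01, 0.35, 0.73 and 1.11, and the first 2 of these did not pass. The other ligands Egf (0.33), Tgfa (0.16) and Hbegf (0.32), and the receptor Egfr (0.54, adjusted p = 0.0852), did not pass. With 1 array left out 2 to 3 niche genes and 3 to 5 growth factor genes were called higher.

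Genes known from injured and regenerating gut epithelium were higher in 15 of 31, with 2 lower (median 0.72), beside 16.3% and 10.2% of all genes. The RNA came from whole tissue, so the count is not one of epithelium alone. Called higher were 5 of 6 fibroblast, 3 of 6 smooth muscle and 3 of 6 macrophage markers, and the part of these cells was not tested. S100a6, a calcium-binding protein, had 12.91 and 12.72 in the 72 h arrays, against 10.72 and 11.26 in the 0 h arrays (1.83 ± 0.31, adjusted p = 0.00560). Krt7, a keratin of simple ducts, had 9.17 and 9.32 at 72 h, against 7.51 and 7.81 at 0 h (1.59 ± 0.14, adjusted p = 0.000584). Gja1, connexin 43, had 10.21 and 10.43 at 72 h, against 9.0 and 8.88 at 0 h (1.39 ± 0.11, adjusted p = 0.000440), although its 2 dimmer probe sets gave 0.17 and -0.31. Anxa5 (1.38), Anxa8 (1.32), Anxa3 (1.15) and Anxa1 (0.98), annexins that bind membranes in the presence of calcium, the alarmin Il33 (1.32) and the urokinase receptor Plaur (1.04) followed. Reg1a, a secreted regenerating protein, fell (-0.71 ± 0.15, adjusted p = 0.0129), while Reg3b (0.47) and Reg3g (0.46), its antimicrobial relatives, did not pass. Among pancreatic acinar genes, of which 6 of 24 fell, the lowest change was also -0.71. In the colon Reg1a changed by 2.78 (adjusted p = 0.253), beside a median of 2.54 for the acinar genes. Whether its fall was one of epithelium was not tested. When 1 array was left out, 9 to 11 genes of the list were called higher.

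**Figure D3:**
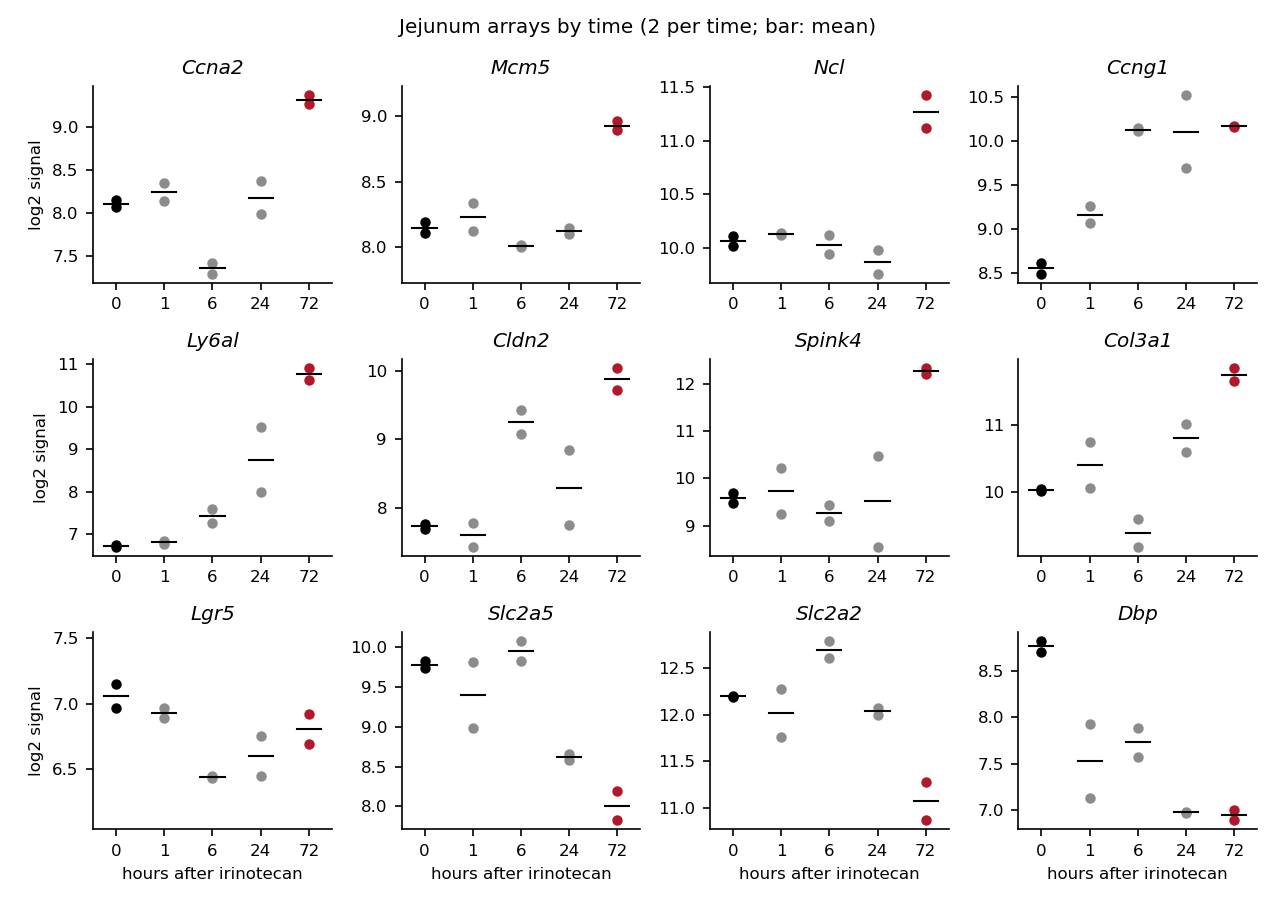
Log2 signal of 12 genes in the 10 jejunum arrays by hours after irinotecan, with each pool as a point and the mean of the 2 pools as a bar. At 72 h both pools of Ly6al, Cldn2, Spink4, Col3a1, Ccna2, Mcm5 and Ncl stand above every pool of every earlier time and both pools of Slc2a5 and Slc2a2 below, while Lgr5 and Ccng1 overlap with earlier times.

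Brush border genes were lower where they changed. Of 26 brush border genes 15 fell and none rose (median -0.37), beside 10.2% of all genes lower. Treh, trehalase, had 8.18 and 8.18 in the 72 h arrays, against 9.28 and 9.21 in the 0 h arrays (-1.06 ± 0.15, adjusted p = 0.00231). Xpnpep2, an aminopeptidase of the apical membrane, had 9.06 and 9.15 at 72 h, against 10.03 and 10.35 at 0 h (-1.09 ± 0.14, adjusted p = 0.00191). Mme, the endopeptidase neprilysin, had 10.74 and 10.97 at 72 h, against 11.54 and 11.60 at 0 h (-0.72 ± 0.12, adjusted p = 0.00462). In each the treated pools were lower, as they were for 22 of the 26 brush border genes and 5274 of all 14217 genes. The structural proteins Vil1, villin (-0.60), Ush1c, harmonin (-0.75), and Espn, espin (-0.71), and the disaccharidase Si, sucrase-isomaltase (-0.39), also fell, whereas the aminopeptidase Anpep (-0.34) and intestinal alkaline phosphatase, Alpi (-0.09), did not pass. The count was sensitive to the arrays: 6 to 7 were called lower with 1 array left out.

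Transporters of nutrients had 9 genes higher and 12 lower of 42, beside 16.3% and 10.2% of all genes. Most of those that fell carry digested sugars, amino acids and minerals. Slc2a2, the hexose transporter GLUT2, had 10.87 and 11.28 at 72 h, against 12.20 and 12.19 at 0 h (-1.12 ± 0.17, adjusted p = 0.00377). Slc7a7, of the basolateral exchanger for cationic amino acids, had 10.07 and 10.17 at 72 h, against 11.25 and 11.18 at 0 h (-1.10 ± 0.10, adjusted p = 0.000640). S100g, calbindin D9k of calcium uptake, was at -0.99, and the vitamin C transporter Slc23a1 at -0.85. The sodium-glucose transporter Slc5a1 (-0.21) and the peptide transporter Slc15a1 (-0.17) did not pass. Those that rose included Slc7a5 (0.64), Slc38a2 (0.86) and Slc1a5 (0.54), amino acid transporters used by dividing cells, with Slc28a2, a purine nucleoside importer (1.25), and the phosphate transporter Slc34a2 (1.28). In fits without 1 of the 4 arrays 1 to 3 were called higher and 7 to 9 lower.

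Lipid absorption genes fell in 9 of 36 and rose in 2. Mogat2, which rebuilds diacylglycerol in enterocytes, had 10.09 and 10.32 at 72 h, against 11.11 and 11.11 at 0 h (-0.91 ± 0.10, adjusted p = 0.000903). Scarb1, a lipid receptor (-0.81), and Dgat1, which makes triglyceride (-0.41), also fell, although a second probe set of Scarb1 gave -0.22 (adjusted p = 0.634). The abundant carriers did not pass, with the apolipoproteins Apob at 0.13 and Apoa1 at 0.07 and the fatty acid binding proteins Fabp1 at -0.23 and Fabp2 at -0.18. Pnliprp2, a pancreatic-type lipase, rose (1.58 ± 0.23, adjusted p = 0.00290), while no gene of the pancreatic acinar list rose in the jejunum. Of 14 bile acid genes 3 fell, including Slc51a, of the basolateral bile acid exporter (-0.73), and none rose. Fatty acid oxidation genes fell in 8 of 36. Of 50 respiratory chain genes 6 were called lower and none higher, but 49 lay below 0, with a median of -0.20. After removal of 1 array 3 to 5 lipid absorption genes, 1 to 2 bile acid genes, 2 to 5 fatty acid oxidation genes and 0 to 1 respiratory chain genes were called lower, and all 4 counts stand beside 10.2% of all genes called lower.

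Calls among genes of drug and hormone metabolism were mostly lower. Of 38 cytochrome P450 and phase II genes 16 fell and 2 rose (median -0.36), beside 10.2% of all genes called lower and 16.3% called higher. Maob, which degrades amines, had 8.82 and 9.57 at 72 h, against 10.13 and 10.25 at 0 h (-1.0 ± 0.20, adjusted p = 0.0103). Fmo4 (-1.11) and Fmo5 (-0.43), flavin monooxygenases, Sult2b1, a cholesterol sulfotransferase (-0.95), and Ephx2, soluble epoxide hydrolase (-0.67), fell. Of 16 genes that handle irinotecan 3 fell, Abcb1a, the oxidising enzyme Cyp3a23-3a1 (-0.80) and the uptake carrier Slco2b1 (-0.30). A dimmer probe set of Slco2b1 gave -0.07 (adjusted p = 0.735). Abcc1, an efflux pump, rose (0.46). Ces2c, a carboxylesterase of the family that releases SN-38, was at 0.51 (adjusted p = 0.175), and the efflux pumps Abcg2 (0.08) and Abcc2 (-0.29) did not pass. Glutathione and antioxidant genes were split into 9 higher and 5 lower of 46, near the shares of all genes. Gpx2 had 12.96 and 13.05 at 72 h, against 11.14 and 11.11 at 0 h (1.88 ± 0.12, adjusted p = 0.000259). Nqo1, a quinone reductase, rose (1.53 ± 0.21, adjusted p = 0.00219), whereas catalase, Cat (-0.43), and the glutathione transferases Gsta3 (-0.78) and Gsta4 (-0.78) fell. With 1 array left out 6 to 8 cytochrome P450 and phase II genes were called lower and 0 higher, 1 to 2 genes that handle irinotecan were called lower, and 4 to 6 glutathione genes were called higher and 2 to 3 lower.

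Ion and water transport, which sets stool fluid, had 15 genes lower and 6 higher of 46, beside 10.2% and 16.3% of all genes. When 1 array was left out, 2 to 6 were called lower and 2 to 3 higher, and 2 junction genes higher. The chloride-bicarbonate exchanger Slc26a3, needed to absorb salt, had 8.43 and 8.76 at 72 h, against 9.27 and 9.46 at 0 h (-0.77 ± 0.12, adjusted p = 0.00370). Car4, a carbonic anhydrase (-0.92), the water channels Aqp3 (-0.90) and Aqp8 (-0.70), and Atp1b1, a subunit of the sodium pump (-0.49), fell too. Slc12a2, which loads crypt cells with chloride for secretion, had 11.80 and 11.93 at 72 h, against 10.89 and 10.94 at 0 h. Kcne3, a potassium channel subunit of the secreting crypt, rose (0.96 ± 0.29, adjusted p = 0.0418), as did Fxyd3, a regulator of the sodium pump (1.50). The chloride channel Cftr (-0.07) and the sodium-proton exchanger Slc9a3 (-0.09) did not pass. Among 33 junction genes 4 rose, Cldn2, Gja1, Gjb1 and Tjp1, and 1 fell, Cldn18, a claudin of stomach (-0.37). Both junction shares lay below those of all genes. Occludin, Ocln, was at 0.07 and E-cadherin, Cdh1, at 0.12, with -0.29 on a dimmer probe set of Cdh1 (adjusted p = 0.0296).

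Secretory lineages differed. Of the 7 goblet cell markers 1 was called higher. In the longer goblet list 7 of 23 genes were higher and none lower (median 0.45), beside 16.3% of all genes higher and 10.2% lower. Beside Spink4 these included Spdef, the transcription factor of goblet cell maturation (0.91 ± 0.09, adjusted p = 0.000787), Foxa3 (0.83), the glycosyltransferase C1galt1 (1.07) and the membrane mucin Muc4 (1.16). Muc2, the main gel-forming mucin, had 12.85 and 12.99 at 72 h, against 12.36 and 12.33 at 0 h (0.57 ± 0.18, adjusted p = 0.0520) and missed the threshold. Enteroendocrine genes gave 1 higher, the prohormone-processing enzyme Cpe (1.00), and 2 lower of 24. Of 22 Paneth and antimicrobial genes 3 rose and 2 fell, near the shares of all genes. Duox2, which makes hydrogen peroxide at the mucosal surface, had 8.73 and 8.42 at 72 h, against 7.28 and 7.54 at 0 h (1.17 ± 0.15, adjusted p = 0.00184), and Pigr, which carries immunoglobulin A across the epithelium, had 11.24 and 11.48 at 72 h, against 12.40 and 12.29 at 0 h (-0.98 ± 0.24, adjusted p = 0.0221). Defensins did not pass, such as Defa5 (-0.29) and Defa24 (-0.25), and since these genes are near-identical copies their probe sets may read several of them. In fits without 1 of the 4 arrays 4 to 5 goblet genes and 1 to 3 Paneth and antimicrobial genes were called higher.

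**Figure D4:**
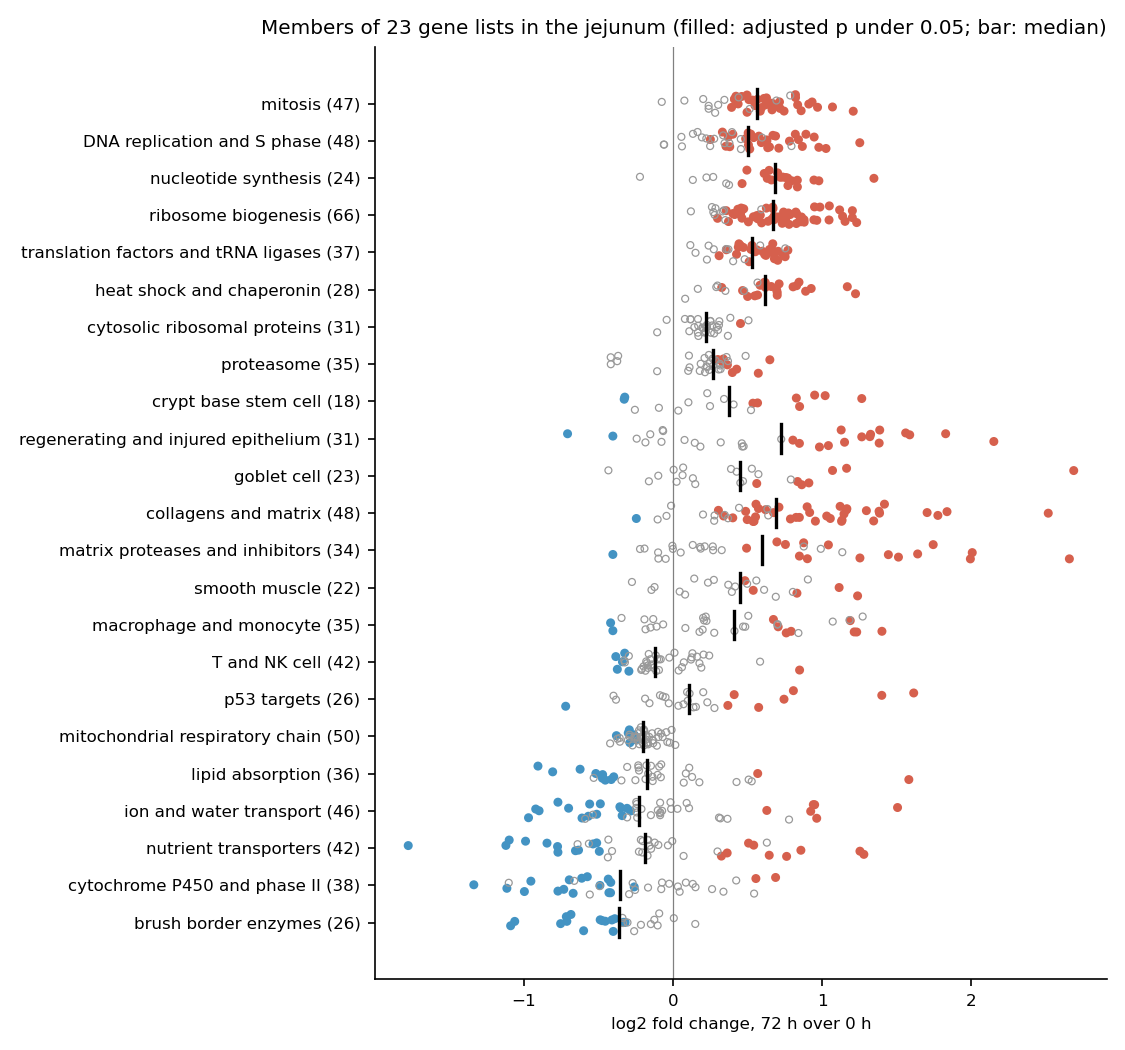
Log2 fold change at 72 h over 0 h (horizontal axis) of every measured gene of 23 lists, with list sizes in brackets. Filled points passed an adjusted p under 0.05 (red higher, blue lower), open points did not, and the bar is the list's median, which lies at 0.67 for ribosome biogenesis and at -0.37 for brush border enzymes.

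Connective tissue genes rose widely. Of 48 collagen and matrix genes 36 were higher and 1 lower (median 0.69). Col3a1, a fibrillar collagen of granulation tissue, had 11.83 and 11.64 in the 72 h arrays, against 10.05 and 10.02 in the 0 h arrays (1.70 ± 0.22, adjusted p = 0.00193). Tnc, tenascin C, a matrix protein of healing wounds, had 9.68 and 10.03 at 72 h, against 8.32 and 7.72 at 0 h (1.84 ± 0.20, adjusted p = 0.000932). Fn1, fibronectin, had 10.21 and 10.43 at 72 h, against 8.62 and 8.46 at 0 h (1.78 ± 0.15, adjusted p = 0.000564). Both pools of treated rats were more than 1 unit above both untreated pools in these 3 genes. By any margin they lay above for 44 of the 48 genes and for 5399 of all 14217. The basement membrane genes Col4a1 (1.42), Lamc1 (1.38) and Nid1 (1.15), the fibrillar collagens Col1a1 (1.16) and Col1a2 (0.92), the microfibrillar Col6a1 (1.38) and Col6a3 (1.30), and the collagen chaperone Serpinh1 (1.12) rose. Dimmer probe sets rose too for Col4a1, Lamc1, Col1a2 and Col6a3. Those of Nid1 (0.0075), Col1a1 (0.40) and Serpinh1 (-0.04) did not pass. The fibroblast marker Pdgfra was higher too (1.03 ± 0.19, adjusted p = 0.00755). Of the 6 fibroblast markers, most of which are also on this list, 5 were called higher, and the part of fibroblast number in the result was not tested. The count with 1 array left out was 14 to 26.

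Enzymes that cut the matrix and their inhibitors were higher in 15 of 34. Apart from Plat, Timp1 and Ctsl, Timp2 had 10.25 and 10.33 at 72 h, against 8.5 and 8.59 at 0 h (1.74 ± 0.14, adjusted p = 0.000362). Mmp2, gelatinase A, had 9.16 and 8.95 at 72 h, against 7.78 and 7.44 at 0 h (1.44 ± 0.37, adjusted p = 0.0250), with -0.08 on a dimmer probe set. Adamts1, an aggrecanase (1.64), Mmp14, the membrane activator of MMP2 (0.88), and urokinase, Plau (0.85), rose. A dimmer probe set of Mmp14 gave 0.24 and did not pass, while that of Plau rose by 0.65. Mmp3, stromelysin 1, was at -0.0046 and Mmp9, gelatinase B, at 0.33, neither called, while Mmp10 (1.13, adjusted p = 0.251) and Mmp13 (0.99, adjusted p = 0.137) had larger differences that did not pass. Smooth muscle genes rose in 5 of 22 and fell in none, led by Des, desmin (1.24 ± 0.25, adjusted p = 0.0107). Vessel genes rose in 6 of 33, a share near the 16.3% of all genes, among them Lyve1 of lymphatic vessels (1.41) and the pericyte marker Rgs5 (0.75). Pecam1, of all endothelium, was at 0.37 (adjusted p = 0.0811). Of 16 fat cell genes 3 rose, Fabp4, a fatty acid carrier (1.44), the lipase Lpl (1.23) and Cfd (1.48), while the adipocyte hormones Adipoq (0.35) and Lep (-0.24) did not pass. After removal of 1 array 10 to 11 proteases and inhibitors, 1 smooth muscle gene, 2 to 4 vessel genes and 2 to 3 fat cell genes were called higher.

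Immune lists moved in part. Macrophage and monocyte genes rose in 8 of 35 and fell in 2, beside 16.3% of all genes higher and 10.2% lower. Cd163, the haemoglobin scavenger receptor of resident macrophages, had 7.42 and 7.65 in the 72 h arrays, against 6.35 and 6.35 in the 0 h arrays (1.19 ± 0.12, adjusted p = 0.000711). Mrc1, the mannose receptor, had 8.14 and 8.24 at 72 h, against 6.97 and 6.98 at 0 h (1.21 ± 0.13, adjusted p = 0.000832). Cd14, the co-receptor for bacterial lipopolysaccharide, had 8.18 and 8.22 at 72 h, against 7.07 and 6.87 at 0 h (1.23 ± 0.13, adjusted p = 0.000767). The treated pools were higher in all 3, as they were for 26 of the 35 macrophage and monocyte genes and 5399 of all 14217 genes. Csf1r, the receptor of macrophage growth factor, rose (0.76), whereas Cd68 (0.41) and the complement genes C1qa (1.07), C1qb (1.18) and C1qc (1.27) did not pass. Of 24 complement genes 7 rose, such as C1s (1.57), C1r (1.08) and their inhibitor Serping1 (1.21). With 1 array left out 4 to 5 macrophage genes and 3 to 6 complement genes were called higher.

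Calls among lymphocyte genes lay near the shares of all genes, 16.3% higher and 10.2% lower, or below them. Of 42 T and NK cell genes 5 fell, including Cd8a (-0.30), Cd8b (-0.38) and Ifng, interferon γ (-0.37), and 1, Tcf7, rose. Other probe sets of Cd8a gave -0.11 (adjusted p = 0.455) and -0.04 (adjusted p = 0.754). Cd8a, Cd8b and Ifng were dim, at 6.86 or less in the 4 arrays, whose medians over all probe sets were 6.97 to 7.01. The pan-T genes Cd3e (-0.17) and Cd3d (-0.14) did not pass. Of 21 B and plasma cell genes 2 rose and 3 fell. No mast cell gene of 18 was called in either direction, and neutrophil and eosinophil genes gave 2 higher and 1 lower of 15. Antigen presentation genes had 0 higher and 2 lower of 32. When 1 array was left out, 0 to 1 T and NK cell genes and 0 to 1 B and plasma cell genes were called lower.

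Inflammatory signals were mixed. NF-kB and cytokine genes rose in 11 of 45 and fell in 2, beside 16.3% of all genes higher and 10.2% lower. Ptgs2, cyclooxygenase 2, had 6.12 and 7.12 at 72 h, against 5.73 and 5.77 at 0 h (0.87 ± 0.24, adjusted p = 0.0340). Tlr2 (1.23), Tlr4 (0.58) and Cxcl1, a neutrophil chemokine (0.64), rose. Tnf (-0.07), Il1b (0.08) and Il6 (-0.18), the classical inflammatory cytokines, did not pass. Chemokine genes rose in 10 of 43, including Cxcl12, which holds progenitors in tissue (0.90), and Ccl21, of lymphatic vessels (1.06). Of 45 interferon-induced genes 11 rose, Ifitm3 most (1.71 ± 0.24, adjusted p = 0.00244), while Isg15 (0.69) and Mx1 (0.33) did not pass. Prostaglandin genes rose in 5 of 25, among them Ptgs1, cyclooxygenase 1 (0.95), and the phospholipase Pla2g4a (1.07), and Hpgd, which breaks prostaglandins down, fell (-0.48). Dimmer probe sets of Ptgs1 (0.06) and Hpgd (-0.69) did not pass. In fits without 1 of the 4 arrays 4 to 6 NF-kB and cytokine genes, 3 to 4 chemokine genes, 3 to 4 interferon-induced genes and 2 to 3 prostaglandin genes were called higher.

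Some p53 targets and some repair genes were higher. Of 26 p53 targets 7 rose and 1 fell. Ccng1, cyclin G1, a direct p53 target, had 10.17 and 10.16 in the 72 h arrays, against 8.61 and 8.49 in the 0 h arrays (1.61 ± 0.21, adjusted p = 0.00197). Plk2, a stress kinase also induced by growth factors, had 8.06 and 8.26 at 72 h, against 6.77 and 6.75 at 0 h (1.40 ± 0.17, adjusted p = 0.00141). Phlda3, an AKT inhibitor, rose (0.81). Cdkn1a, p21, the cell cycle inhibitor best known as a p53 target, had 9.11 and 9.08 at 72 h, against 8.89 and 9.07 at 0 h (0.11 ± 0.21, adjusted p = 0.713). Mdm2, the ligase that degrades p53, was at 0.20 (adjusted p = 0.110) on its brightest probe set but rose by 0.63 on each of 2 others (adjusted p = 0.0120 and 0.00754). The apoptosis trigger Bbc3, or PUMA, was at 0.09 and did not pass. Double-strand break and crossover repair genes rose in 18 of 46 and fell in none, for example Msh6, of mismatch repair (0.92), Nbn, of the break sensor (0.79), Exo1, an exonuclease (0.67), and the checkpoint kinase Chek1 (0.52). Top1, the enzyme irinotecan traps, had 9.84 and 9.95 at 72 h, against 10.04 and 9.95 at 0 h (-0.11 ± 0.14, adjusted p = 0.601), and a dimmer probe set gave 0.52 (adjusted p = 0.0827). Apoptosis regulators gave 7 higher and 3 lower of 36, near the shares of all genes, 16.3% and 10.2%. After removal of 1 array 4 to 6 p53 targets, 4 to 10 repair genes and 2 to 3 apoptosis regulators were called higher.

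Immediate early, glucocorticoid-induced and clock genes moved in part, and their counts stand beside 16.3% of all genes higher and 10.2% lower. Immediate early genes rose in 10 of 31, with Gem, a GTPase, first (1.69 ± 0.14, adjusted p = 0.000426), and Egr1 at 0.82, while Fos was at -0.34 (adjusted p = 0.377) and fell on a dimmer probe set, by 0.50 (adjusted p = 0.00808). Of 19 glucocorticoid-induced genes 5 rose, with Fkbp5 at 1.58, but Tsc22d3, or GILZ (0.29), and Per1 (0.01) did not pass. Clock genes gave 4 lower, Dbp, Nr1d1, Per3 (-0.75) and Hlf (-0.29), and 3 higher, Bhlhe40 (0.71), Clock (0.47) and Rora (0.31), of 18. Bmal1, which is antiphase to Dbp in rodents, was at 0.57 (adjusted p = 0.0520). With 1 array left out 6 to 9 immediate early genes and 3 to 5 glucocorticoid-induced genes were called higher, and 1 to 2 clock genes lower and 0 to 1 higher. No source used here tells the hour of day at which each group was killed, and its part in these differences was not tested.

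The 72 h arrays were also set against the 24 h arrays, to show what was different from the day after the drug. This comparison shares the 72 h arrays with the main one. The 24 h pools agreed less well, correlating at 0.972, and the first had a GAPDH gap of 0.816. At 72 h 1941 genes were higher than at 24 h (13.7%) and 650 lower (4.57%). Mitosis genes were higher in 41 of 47 with a median of 0.77, replication genes in 35 of 48, ribosome biogenesis genes in 54 of 66 and cytosolic ribosomal protein genes in 27 of 31. Brush border genes were lower in 16 of 26. The 8 genes with the smallest adjusted p were all higher at 72 h. Mboat1 differed by 1.84 ± 0.09 (adjusted p = 0.000218), Tspan1, a tetraspanin, by 1.26 ± 0.07 (adjusted p = 0.000477), Pno1 by 1.15 ± 0.09 (adjusted p = 0.000919) and Psat1 by 1.56 ± 0.12 (adjusted p = 0.000919). Pola1, the catalytic subunit of the DNA polymerase that starts each strand, differed by 1.02 ± 0.08 (adjusted p = 0.000919), S100a16 by 1.10 ± 0.08 (adjusted p = 0.000919), Krt7 by 1.86 ± 0.14 (adjusted p = 0.000919) and Plat by 2.09 ± 0.16 (adjusted p = 0.000919). Without the first 72 h array 912 probe sets were called in place of 4010, without the second 72 h array 1361, and without the second 24 h array 8965.

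The change in the jejunum was compared with the change in the colon of the same rats, as the difference between the 2 changes over 20 arrays. The pools come from the same animals, so the tissues are not independent. The differences that passed were 272 genes, or 1.91%, 200 with a higher change in the jejunum and 72 with a lower one. Ly6al had a jejunum change of 4.04 and a colon change of -0.11 (difference 4.15 ± 0.44, adjusted p = 0.00125). For Tspan1 the changes were 0.96 in the jejunum and -0.06 in the colon, for Mboat1 1.97 and 0.12, and for Slc2a5 -1.78 and -0.09. The other 5 with the smallest adjusted p were Sowahc (1.72 in the jejunum, -0.23 in the colon), the glutamine synthetase Glul (1.31 and -0.30), the phosphatase Dusp23 (-1.03 and 0.05), the nucleotidase Cant1 (0.76 and -0.49) and the transcription factor Mecom (1.13 and -0.80). The values of Glul are from a dimmer probe set, and its brightest gave 0.84 in the jejunum and 0.18 in the colon, a difference of 0.66 that did not pass (adjusted p = 0.248). Median changes in the colon were -0.04 for mitosis with 0 genes called, 0.22 for ribosome biogenesis with 0 and 0.47 for collagens with 9. These counts stand beside only 260 of all 14217 genes called in the colon, so a count of 0 says little about a list. Macrophage and monocyte genes had a median of 0.41 in the jejunum and 0.82 in the colon, and genes of regenerating epithelium 0.72 in the jejunum and 0.70 in the colon. The gene by gene difference passed for 5 mitosis genes, 1 ribosome biogenesis gene and, with a higher change in the jejunum, 4 matrix genes, while 1 matrix gene had a lower one. With 1 of the 8 arrays of the 2 times left out, 21 to 487 probe sets differed in place of 431, and 94 or fewer without any 1 of the 4 jejunum arrays or either colon array of 0 h. The 24 pancreatic acinar genes had a median change of -0.22 in the jejunum, where 6 fell and none rose, and of 2.54 in the colon, where none was called.

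**Figure D5:**
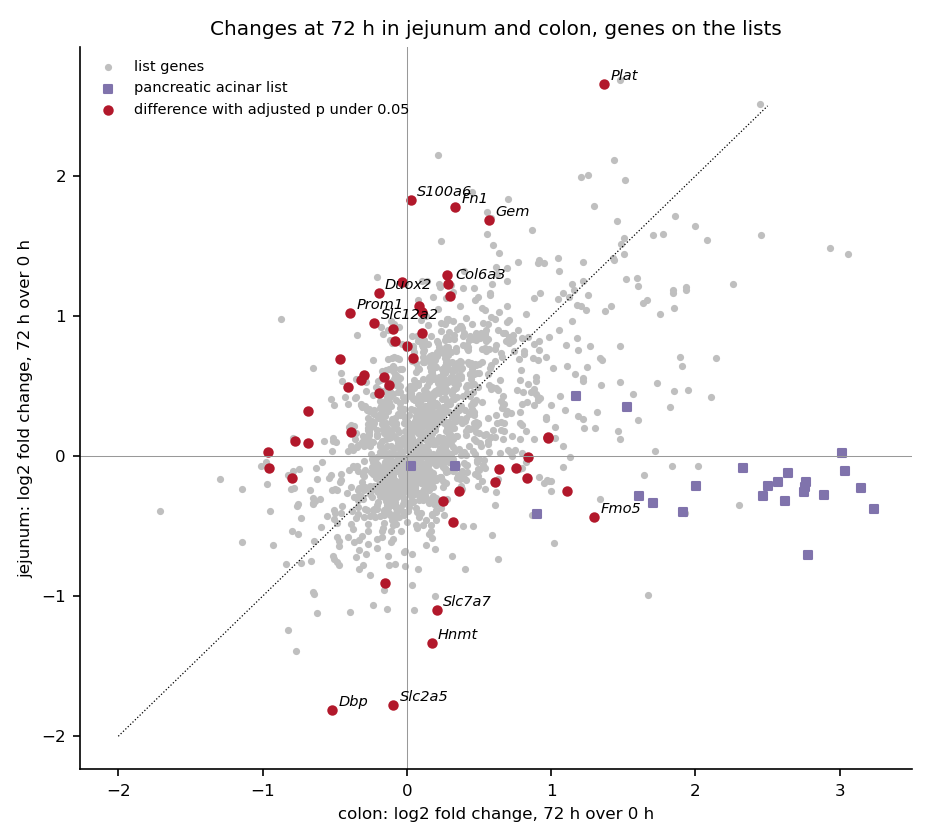
Log2 fold change at 72 h over 0 h in the jejunum (vertical axis) against the colon (horizontal axis), with 1 point per gene of the gene lists, so that Ly6al, which is on no list, is not drawn. Red points differed between the tissues at an adjusted p under 0.05, purple squares are the pancreatic acinar genes, and the dotted line marks equal changes. S100a6 lies at 1.83 in the jejunum and 0.03 in the colon.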

How the data were processed

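The data are the authors' deposited values from Affymetrix Rat 230 2.0 arrays, given per probe set on the log2 scale. The submitters' processing notes name RMA, which corrects background, equalises the distributions and summarises the probes of a set. Not given in the sources used here is its version, nor whether all arrays went through it at once. Such summaries compress the differences of dim probe sets. An array has no read depth, so precision rests on the 2 arrays per group. The 57 control probe sets were left out, which left 31042. Of these 20826 had 1 gene symbol, 436 several and 9780 none, and none was named from a probe set with several. The 1-symbol probe sets were matched to current RefSeq symbols, 20758 of them.

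A mean for each of the 5 times was fitted to the 10 jejunum arrays with limma 3.58.1 (R 4.3.3), and 72 h was contrasted with 0 h and with 24 h. Variances were moderated, and p-values adjusted by Benjamini-Hochberg over all 31042 probe sets. The difference between the tissues used 20 jejunum and colon arrays. Samples were grouped by tissue and time in the labels. Nothing in the labels says that the pools were separate experiments, so p-values measure the spread between pools. The replicate numbers do not pair the arrays: deviations of same-numbered arrays correlated between -0.58 and 0.37 over pairs of times, and at -0.01 for 0 h and 72 h. The fit was tested on simulated data. Alternatives were a filter on dim probe sets, quantile normalization, trended variances, array weights, other sets of arrays, the replicate block, other probe sets of a gene, and leaving out each array.

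The text names the 15 highest and 15 lowest called probe sets whose arrays do not overlap, up to 8 called members of each gene list and members whose role defines it, and the 8 smallest adjusted p of each other comparison. The members and the lists were chosen with earlier results of these data known.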

Additional observations from a re-analysis of the deposited data

Results flagged for a closer look

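The genes below were singled out because their change at 72 h differed between the jejunum and the colon, by the test of the difference itself over 20 arrays at an adjusted p under 0.05, and each value is the jejunum change minus the colon change. The pools of both tissues come from the same rats.

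The difference was positive for Ly6al by 4.15 (4.04 in the jejunum and -0.11 in the colon), Sowahc by 1.95 (1.72 in the jejunum and -0.23 in the colon) and Tspan1 by 1.03 (0.96 in the jejunum and -0.06 in the colon). It was also positive for Glul by 1.6 (1.31 in the jejunum and -0.30 in the colon), Cant1 by 1.25 (0.76 in the jejunum and -0.49 in the colon) and Mboat1 by 1.85 (1.97 in the jejunum and 0.12 in the colon). The value of Glul is from a dimmer probe set, and its brightest gave 0.66 (adjusted p = 0.248), which did not pass. Among the next genes it was positive for Mecom by 1.93 (1.13 in the jejunum and -0.80 in the colon), Prom1 by 1.41 (1.02 in the jejunum and -0.39 in the colon) and Fn1 by 1.44 (1.78 in the jejunum and 0.33 in the colon). Further positive differences were those of Fam3d by 2.06 (1.89 in the jejunum and -0.17 in the colon), Plat by 1.29 (2.66 in the jejunum and 1.37 in the colon) and Slc9a3 by 0.87 (-0.09 in the jejunum and -0.96 in the colon). The jejunum change was the higher for Nid1 by 0.85 (1.15 in the jejunum and 0.30 in the colon), Col6a3 by 1.02 (1.30 in the jejunum and 0.28 in the colon) and Slc12a2 by 1.18 (0.95 in the jejunum and -0.23 in the colon). The same direction held for S100a6 by 1.80 (1.83 in the jejunum and 0.03 in the colon), Gem by 1.12 (1.69 in the jejunum and 0.57 in the colon) and Kif23 by 0.99 (1.07 in the jejunum and 0.08 in the colon). Smaller evidence came with Umps by 0.66 (0.70 in the jejunum and 0.04 in the colon), Duox2 by 1.36 (1.17 in the jejunum and -0.19 in the colon) and Ect2 by 1.01 (0.91 in the jejunum and -0.10 in the colon). Higher in the jejunum were also Tlr4 by 0.87 (0.58 in the jejunum and -0.30 in the colon), Rpa1 by 0.92 (1.03 in the jejunum and 0.11 in the colon) and Cd14 by 0.95 (1.23 in the jejunum and 0.28 in the colon). Their adjusted p ranged from 0.00125 for Ly6al to 0.049 for Cd14.

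The change was lower in the jejunum for Dusp23 by -1.08 (-1.03 in the jejunum and 0.05 in the colon), Hnmt by -1.51 (-1.34 in the jejunum and 0.17 in the colon) and Fam13a by -1.38 (-1.33 in the jejunum and 0.05 in the colon). Also lower were those of Slc2a5 by -1.68 (-1.78 in the jejunum and -0.09 in the colon), Fmo5 by -1.73 (-0.43 in the jejunum and 1.30 in the colon) and Slc7a7 by -1.31 (-1.10 in the jejunum and 0.21 in the colon). The remaining lower changes were those of Dbp by -1.29 (-1.81 in the jejunum and -0.52 in the colon) and Mogat2 by -0.76 (-0.91 in the jejunum and -0.15 in the colon). Here the adjusted p ranged from 0.00198 for Dusp23 to 0.0378 for Mogat2.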

How the results depend on the processing

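The count of probe sets called at 72 h against 0 h was 7405. It fell to 4271 without dim probe sets, and came to 11792 with array weights, 11366 with only the 4 arrays compared and 11744 without the 24 h arrays, and with 1 of the 4 arrays left out to between 1692 (without the second 0 h array) and 3111 (without the second 72 h array). Without the first 0 h array it was 2582 and without the first 72 h array 1723. The count of changes of at least 2-fold kept within 1.5 times of 404 under every alternative. Against 24 h, 4010 probe sets were called, 1748 with array weights and, with an array left out, between 912 and 8965. The tissue difference was called for 431, for 275 in the fit of all 30 arrays, for 1302 with array weights and for 21 to 487 with 1 of the 8 arrays left out. Of the lists, mitosis genes called higher numbered 10 to 22 with 1 array left out, replication genes 13 to 19, ribosome biogenesis genes 32 to 39 and collagen and matrix genes 14 to 26. Brush border genes called lower numbered 6 to 7, and 7 in the fit of all 30 arrays. The cause was not tested. Of the 216 named genes called, 122 were called whichever array was left out.

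With the replicate number as a block, 5773 probe sets were called at 72 h against 0 h, and 16 of the 216 named calls were lost. The numbers do not pair the samples, so this is given for completeness. The counts of the other comparisons and of the 5 lists above changed by 1.5 times or less (brush border genes called lower were 10 in place of 15), and of 85 counts of other lists 19 changed by more than that.

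Signs turned in the following values, all of them of genes not called or on another probe set of the gene. With 1 of the 4 arrays left out, Abcg2 lay between -0.11 and 0.26, Alpi between -0.20 and 0.0098, Apob between -0.040 and 0.29, Cftr between -0.22 and 0.075, Ddit3 between -0.061 and 0.16, Fos between -0.81 and 0.13, Foxm1 between -0.0005 and 0.15, Hbegf between -0.0032 and 0.64, Il1b between -0.16 and 0.31, Mmp3 between -0.18 and 0.17, Per1 between -0.068 and 0.083, Slc9a3 between -0.20 and 0.026 and Wnt5a between -0.009 and 0.077. With quantile normalization, Axin2 was at -0.012, Bbc3 at -0.044, Cdkn1a at -0.040, Cenpa at 0.048, Ddit3 at -0.099, E2f1 at -0.0042, Il1b at -0.019, Mmp3 at 0.12, Per1 at -0.15 and Tnf at 0.0088. On other probe sets, Anxa3 was at -0.025 and -0.20, Apob at -0.12, Ccne2 at -0.29, Cdh1 at -0.29, Clock at -0.012, Ctps1 at -0.28, Egfr at -0.034, Fut2 at -0.17, Gja1 at -0.31, Kcne3 at -0.10, Mmp2 at -0.082, Per3 at 0.15, Plaur at -0.12, Rora at -0.25, Serpinh1 at -0.042, Top1 at 0.52 and Ubtf at -0.21 and -0.038. The cause was not tested. For named genes that were called, 38 other probe sets gave the same call, 37 kept the sign but did not pass, and 13 turned the sign. Dim probe sets limit the reading of small changes.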
